A study of Mus musculus with 6 samples.

Results

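The netrin, Slit and Robo guidance genes described here are 6 genes, Unc5b, Robo4, Robo1, Slit2, Slit3 and Ntn1, taken by symbol from a table of 41214 genes. All 6 had a row in the table. A filter on low counts kept 5 of them, all but Slit3, among the 10952 genes that were tested. The RNA came from endothelial cells of embryonic mouse hearts, sorted as CD31+ and GFP+ cells. All groups carried Pdgfb-iCreERT2-IRES-EGFP, a transgene in which Pdgfb sequence drives, in endothelium, tamoxifen-activated Cre together with the EGFP reporter, and all received tamoxifen at E13.5 with collection at E14.5 (embryonic days). The wt group (labelled WT) had no floxed Dll4 allele, the het group (Dll4+/-) came from a cross of Dll4 flox/flox carriers with wild-type mice, and the KO group (Dll4-/-) from a cross of such carriers with Dll4 flox/flox females. The groups were therefore not littermates of 1 cross. Which part of Dll4 is floxed is not given in the sources used here. Each group had 2 libraries, numbered by the labels as wt 4 and 5, het 2 and 3, and KO 1 and 2. The labels describe groups of hearts from several litters and give no number of hearts per library. The p-values therefore measure the spread between these libraries, as estimated by a fit that shares information on spread over genes.

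Netrins and Slits are secreted guidance cues first described for growing axons. Netrin-1, the product of Ntn1, binds receptors of the UNC5 and DCC families, and UNC5B is the UNC5 receptor known from arterial endothelium and from tip cells at the front of vascular sprouts. Slits bind ROBO1 and ROBO2 with help from heparan sulfate, and signal through Srgap proteins and small GTPases to the actin cytoskeleton. ROBO4 is a shorter receptor found mainly in endothelium that lacks much of the Slit-binding region, binds UNC5B, and is known to restrain vessel leak and VEGF signalling. Dll4 is the Notch ligand of arterial and tip cells.

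Library totals ranged from 1537894 to 6501789 counts after rounding, and both KO libraries were deeper than the other 4. Lars2, the mitochondrial leucyl-tRNA synthetase gene, took 16.3% to 17.1% of counts in the wt and het libraries and 0.0572% and 0.0611% in the KO libraries, so the KO libraries stood apart in makeup as well as genotype. With no preparation date in the labels, a difference between batches cannot be told apart from loss of Dll4. Dll4 followed the labels, at 196 and 183 CPM (counts relative to the scaled library size) in the wt libraries, 81.2 and 85.9 with 1 copy deleted, and 19.4 and 13.7 with none intact. All 10 endothelial markers were detected, with a summed level between 5591 and 6790 CPM in every library, but in KO against wt 3 of them were called lower (Cdh5, Erg and Emcn) and 2 higher (Kdr and Tek). Arterial markers (8 of 8) summed to 1741 to 1924 CPM in wt, 1445 to 1448 in het and 987 to 1003 in KO, and endocardial markers (6 of 6) to 2166 to 2326, 2230 to 2409 and 876 to 1052. The endocardial sum rested mostly on Plxnd1, the 1 of the 6 called in KO against wt, at mean levels of 1890 CPM in wt and 665.5 in KO. Of the markers of other heart cells, 14 of 14 cardiomyocyte genes summed to 112 to 120 CPM in wt, 189 to 234 in het and 50.6 to 58.2 in KO, with Nppb and Ryr2 at 0 in every library but het 2. The 16 of 16 mural, fibroblast and epicardial genes summed to 235 to 315, 400 to 519 and 205 to 305 CPM, and 9 of 9 macrophage genes to 47.1 to 104, 87.6 to 288 and 34.3 to 62.7 CPM. Summed erythroid genes ranged from 118 to 416 CPM, and summed neural and Schwann genes from 4.41 to 8.99 CPM.

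In wt endothelium Robo4 and Unc5b were far above the other 4 genes. Per kilobase of merged exon length, Robo4 stood at 46.0 ± 0.448 CPM and Unc5b at 43.4 ± 3.28 (SD, n = 2 libraries), a gap smaller than the spread of Unc5b. Ntn1 followed at 2.95 ± 0.749 and Robo1 at 2.32 ± 0.352 CPM per kilobase, which differed by less than the spread of Ntn1. Slit2 stood at 0.828 ± 0.257 and Slit3 at 0.0522 ± 0.0738 CPM per kilobase. Scaled by the longest coding transcript in place of merged exons, Robo1 (5.06) came above Ntn1 (3.15) and Slit2 (2.12). In KO the order per kilobase of merged exons was Robo4 at 41.0 ± 3.04, Unc5b at 6.47 ± 0.530, Robo1 at 3.31 ± 0.978, Slit2 at 0.562 ± 0.389 and Ntn1 at 0.360 ± 0.165 CPM. Slit2 and Ntn1 did not differ there beyond their spread on this scale. Scaled by the longest coding transcript, Robo1 (7.23) came above Unc5b (6.90) in KO, and Slit2 (1.435) above Ntn1 (0.384).

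**Figure D1:**
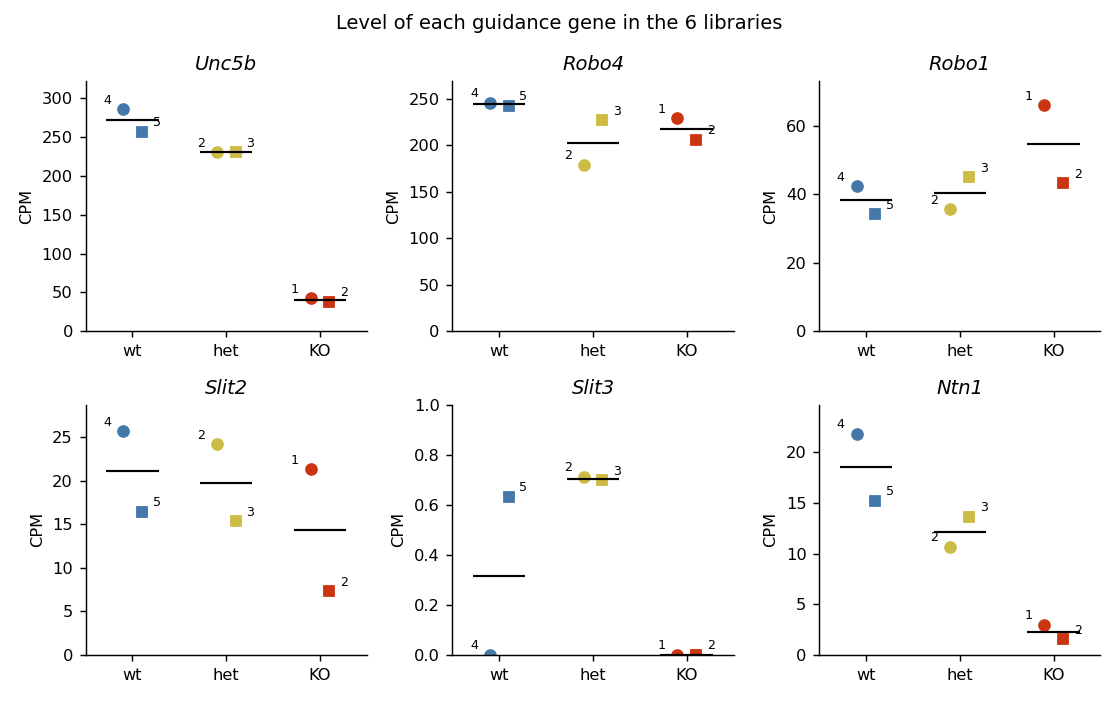
Level of each of the 6 genes in CPM (vertical axes, each from 0), by group, with 1 point per library labelled by its replicate number and a line at the group mean. The 2 KO libraries lie far below the other 4 for Unc5b and Ntn1, whereas the groups overlap for Slit2.

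KO was first set against wt, the effect of losing both Dll4 copies. The netrin receptor gene Unc5b and its ligand gene Ntn1 fell, and Robo4, Robo1 and Slit2 did not pass the test. Thus 2 of 5 tested members were called lower and none higher, where 17.3% of all tested genes were called lower and 14.7% higher. The members' median log2 fold change was -0.56 against -0.02 over all tested genes. With 5 tested members this median is the value of Slit2 alone, which did not pass, so it does not measure a shift of the family.

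Unc5b lies on chromosome 10 from 60762593 to 60831581 on the minus strand (GRCm38; ENSMUSG00000020099), with 18 merged exons. It stood at 286 and 257 CPM in the wt libraries, 230.8 and 230.7 in het, and 42.9 and 38.2 in KO. Both KO libraries lay below the other 4, and the het libraries lay close together just below both wt libraries. KO was 6.69-fold lower than wt (log2 fold change -2.74 ± 0.12 SE, edgeR adjusted p = 9.86e-13), which ranked 8 among all tested genes by p. The log2 fold change was as low or lower in 1.33% of tested genes. These counts rest on 555 reads in KO and 1074 in wt. Counts of Unc5b per count of Pecam1, the gene of CD31, need no scaling factor and were 0.343 and 0.314 in wt, 0.322 and 0.307 in het and 0.0508 and 0.0428 in KO. The choice of reference matters, since Cdh5, the gene of the endothelial junction protein VE-cadherin, went from 1981 and 1928 CPM in wt to 421 and 381 in KO (4.87-fold lower, adjusted p = 1.87e-13). Unc5b counts per Cdh5 count were 0.144 and 0.133 in wt, 0.128 and 0.121 in het, and 0.102 and 0.100 in KO. Per Cdh5 count, both KO libraries still lay below the other 4, by a far smaller factor than per Pecam1 count. Plxnd1 and the arterial marker sum given above were also lower in both KO libraries, and the part of these markers and of Cdh5 in the level of Unc5b was not tested. In bulk samples, fewer cells that express a gene and less RNA per cell cannot be told apart.

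Ntn1 lies on chromosome 11 from 68209364 to 68400823 on the minus strand (ENSMUSG00000020902), with 9 merged exons, and encodes netrin-1. It stood at 21.8 and 15.2 CPM in wt, 10.7 and 13.6 in het, and 2.99 and 1.53 in KO. All 3 groups were separate, with wt highest and KO lowest. KO was 8.01-fold lower than wt (log2 fold change -3.0 ± 0.43 SE, edgeR adjusted p = 1.65e-05). In all, 32 reads stood behind the KO level, and its exact Poisson 95% interval ran from 1.61 to 3.32 CPM, against 15.1 to 24.0 CPM for 75 reads in wt. These intervals cover counting error only. Ntn1 counts per Unc5b count were 0.0764 and 0.0591 in wt, 0.0463 and 0.0590 in het, and 0.0697 and 0.0400 in KO, so the ratio of ligand to receptor RNA overlapped between wt and KO. The cardiomyocyte marker sum, Plxnd1 and Cdh5 were also lowest in KO. From wt to het the cardiomyocyte sum went the other way from Ntn1, from 112 to 120 CPM in wt up to 189 to 234 in het. The part of these markers in the level of Ntn1 was not tested.

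Robo4 lies on chromosome 9 from 37401897 to 37415115 on the plus strand (ENSMUSG00000032125), with 16 merged exons. Its level was 246 and 242 CPM in wt, 179 and 227 in het, and 229 and 206 in KO. Both wt libraries lay above the other 4, and KO 1 lay just above and KO 2 between the het libraries. The KO to wt log2 fold change was -0.17 ± 0.12 SE (edgeR adjusted p = 0.295), and its 95% interval allowed a KO level between 0.753 and 1.05 times that of wt. Robo4 counts per Pecam1 count were 0.295 and 0.296 in wt, 0.250 and 0.302 in het, and 0.271 and 0.231 in KO. Per Cdh5 count they were 0.124 and 0.126 in wt, 0.0989 and 0.119 in het, and 0.5435 and 0.5405 in KO, where Cdh5 was low. Unc5b counts per Robo4 count were 1.16 and 1.06 in wt, 1.29 and 1.02 in het, and 0.187 and 0.185 in KO. Counts of the 2 receptor genes were thus nearly equal in wt and het, and lay far towards Robo4 in both KO libraries.

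Robo1, the broadly expressed Slit receptor, lies on chromosome 16 from 72308306 to 73046095 on the plus strand (ENSMUSG00000022883), with 32 merged exons. It stood at 42.4 and 34.2 CPM in wt, 35.6 and 45.0 in het, and 66.1 and 43.3 in KO. KO 1 was the highest of the 6, and KO 2 lay among the wt and het libraries. The log2 fold change was 0.51 ± 0.22 SE with an unadjusted p = 0.0319 and an edgeR adjusted p = 0.0846. The value turned on the KO libraries: it was 0.78 (adjusted p = 0.0113) without KO replicate 2 and 0.17 (adjusted p = 0.672) without KO replicate 1. It was also called higher with library size only, with no filter, and with trends on GC content and length removed, at 0.87, 0.56 and 0.77.

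Slit2, one of the Slit ligand genes, lies on chromosome 5 from 47983138 to 48307733 on the plus strand (ENSMUSG00000031558), with 46 merged exons. Its level was 25.7 and 16.5 CPM in wt, 24.2 and 15.4 in het, and 21.3 and 7.29 in KO. All 3 groups overlapped, and the 2 libraries of a group differed more than the group means. The log2 fold change was -0.56 ± 0.55 SE (edgeR adjusted p = 0.497), with an interval from 0.270 to 1.70 times the wt level, so these libraries could not resolve either a fall or a rise within those bounds. Without KO replicate 1 Slit2 was called lower, at -1.55 (adjusted p = 0.00677). KO 1 also had more RNA of the fibroblast genes Pdgfra, at 15.97 CPM against 5.77 in KO 2, and Col3a1, at 122 against 70.9. The sum of the mural, fibroblast and epicardial genes was 305 CPM in KO 1 and 205 in KO 2. Within wt and het the order was the other way, with the lower sum in the library with more Slit2. These sums were 235 in wt 4 and 315 in wt 5, and 399.5 in het 2 and 519 in het 3. The part of these genes in the Slit2 level was not tested.

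Slit3, on chromosome 11 from 35121224 to 35708507 on the plus strand (ENSMUSG00000056427), was near absent. It had 0 and 1 counts in wt, 1 and 2 in het, and 0 in both KO libraries. A count of 0 in KO allows up to 3 counts, or 0.221 CPM over the group. No fold is given, because every group was at or under that floor of 3 counts.

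**Figure D2:**
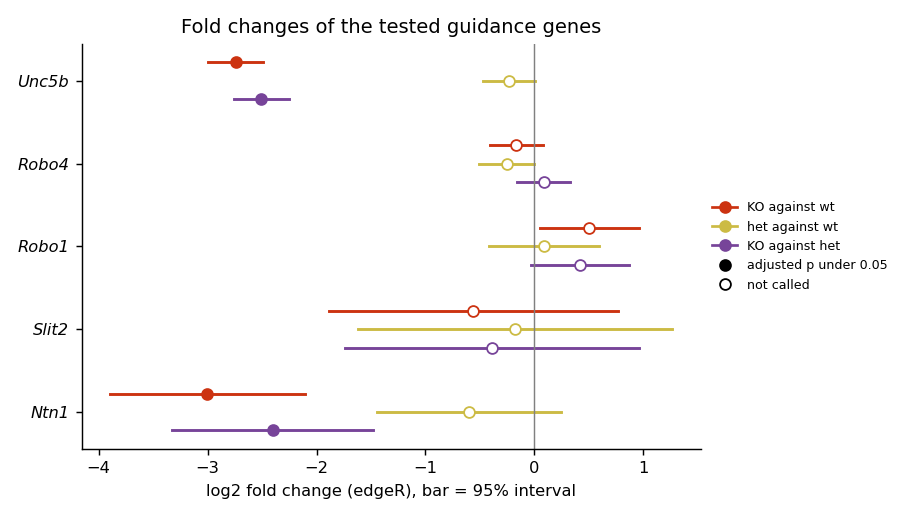
Log2 fold change (horizontal axis) of the 5 tested genes in the 3 comparisons, with the 95% interval as a bar and filled points where the edgeR adjusted p was under 0.05. Unc5b and Ntn1 are filled in KO against wt and in KO against het, and no gene is filled in het against wt.

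The windows before the transcription starts of Unc5b and Robo4 are shown because these are the strong endothelial receptor genes of the family and only the first was called. Each is the 250 bases before the RefSeq start on GRCm38.p6, written 5′ to 3′ on the gene's strand, chr10:60831582-60831831 (minus) for Unc5b and chr9:37401722-37401971 (plus) for Robo4. Capitals mark the letters GGAA, the core bound by ETS factors, on either strand.
Unc5b: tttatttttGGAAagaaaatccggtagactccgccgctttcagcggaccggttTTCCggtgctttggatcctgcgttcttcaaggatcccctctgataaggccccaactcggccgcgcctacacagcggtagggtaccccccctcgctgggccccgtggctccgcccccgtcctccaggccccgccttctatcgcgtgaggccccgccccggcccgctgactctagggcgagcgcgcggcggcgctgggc
Robo4: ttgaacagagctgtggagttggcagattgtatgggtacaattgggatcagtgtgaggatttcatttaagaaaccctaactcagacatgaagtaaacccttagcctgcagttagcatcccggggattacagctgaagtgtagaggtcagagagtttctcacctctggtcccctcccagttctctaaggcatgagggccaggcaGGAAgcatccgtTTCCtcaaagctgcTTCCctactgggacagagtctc
The Unc5b window held 27 CG dinucleotides and 66.8% G and C, and the Robo4 window 2 and 49.6%. Medians over the 32851 RefSeq windows of this length were 6 and 52.4%. The ETS core GGAA occurred 2 times before Unc5b and 3 times before Robo4, at 48, 36 and 22 bases before its RefSeq start. All motifs were searched on both strands. GGAA was in 93.4% of all windows, so its presence is common. The letters TGGGAA, the core of the RBPJ site through which Notch acts, contain the ETS core. They were in none of the windows of Unc5b, Robo4, Robo1, Slit2 and Slit3, and in 21.6% of all windows. The Robo1 window, which ends at base 72663148 of chromosome 16, lies before a start inside the gene, not at the outermost start given above. The Robo4 window runs past the outermost start given above, base 37401897, and its 3 GGAA matches all lie past that base. The windows of Slit2 and Slit3 also run past the outermost starts of these genes. The SOX core ACAAT was found 2 times before Robo4 and in none of the other 4 windows, against 27.7% of all. The E-box CACGTG was in none of the 5 and in 6.02% of all. Ntn1 had no entry. A match is a description of letters, and the absence of one says only that these letters are not in this window.

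Het was set against wt for the effect of a single lost copy. None of the 5 tested members was called, and 0.173% of all tested genes were. The count was also 0 with DESeq2 and with limma-voom, and 1 of 5, Robo4, had an unadjusted p under 0.05. Unc5b in het stood at 85.0% of its wt mean (log2 fold change -0.24 ± 0.11 SE, edgeR adjusted p = 0.611), and the 95% interval ran from 0.719 to 1.0 times wt. Robo4 stood at 83.1% (-0.25 ± 0.12, adjusted p = 0.607), Ntn1 at 65.6% (-0.60 ± 0.41, adjusted p = 0.726), Slit2 at 93.9% and Robo1 at 105%. For Ntn1 the interval ran from 0.368 to 1.19 times wt, so even a loss as large as that of Dll4 itself, at 44.1% of wt, was within it. For Unc5b a loss of that size lay outside the interval.

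KO against het gives the step from 1 copy to none. Unc5b and Ntn1 were again called lower, 2 of 5 members, and none higher, where 17.2% of all tested genes were called lower and 13.9% higher. Unc5b was 5.68-fold lower (log2 fold change -2.51 ± 0.12 SE, edgeR adjusted p = 3.50e-12) and Ntn1 5.29-fold lower (-2.40 ± 0.44, adjusted p = 2.70e-04). Robo4 was at 0.09 ± 0.12, Robo1 at 0.42 ± 0.21 and Slit2 at -0.39 ± 0.56, with adjusted p = 0.625, 0.151 and 0.666. Robo4 was called higher with library size only (0.47), Robo1 with library size only, with GC and length trends removed and without KO replicate 2 (0.80, 0.67 and 0.69), and Slit2 lower without KO replicate 1 (-1.38). This comparison shares the KO libraries with that against wt.

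Whether the 2 steps differed in size was tested as the log2 change from het to KO minus that from wt to het. Of the members, Unc5b alone passed, at -2.27 ± 0.20 SE (edgeR adjusted p = 1.21e-07), where 11.5% of all tested genes passed. Of its log2 change of -2.74 from wt to KO, -2.51 lay between het and KO. The value for Ntn1 was -1.81 ± 0.73 with adjusted p = 0.123, for Robo4 0.34 ± 0.21 (0.346), for Robo1 0.33 ± 0.40 (0.689) and for Slit2 -0.21 ± 1.01 (0.934). Dll4 itself gave -1.15 ± 0.28 (0.00911), and did not pass with library size only, with DESeq2, or without wt replicate 4, wt replicate 5 or het replicate 3. Per library, Unc5b counts per Dll4 count were 1.46 and 1.41 in wt, 2.84 and 2.69 in het, and 2.22 and 2.78 in KO. Among the 8 listed arterial genes, the connexin gene Gja5 stood at 35.9% of wt in het and 4.73% in KO, the chemokine receptor gene Cxcr4 at 66.5% and 4.03%, the connexin gene Gja4 at 66.9% and 20.3%, the Notch target Hey1 at 75.7% and 20.4%, and the semaphorin gene Sema3g at 63.2% and 11.5%. Sox17 stood at 81.8% and 75.6%, the ephrin gene Efnb2 at 91.2% and 50.3%, and Nrp1, a VEGF and semaphorin co-receptor gene, at 91.8% and 89.8%. In het Unc5b, at 85.0%, was below Efnb2 and Nrp1 and above the other 6, and in KO, at 14.9%, it was above Gja5, Cxcr4 and Sema3g and below the other 5. The endothelial gene Cdh5 had a course like that of Unc5b, at 95.1% and 20.5%. These are group means, and differences between genes were not tested.

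**Figure D3:**
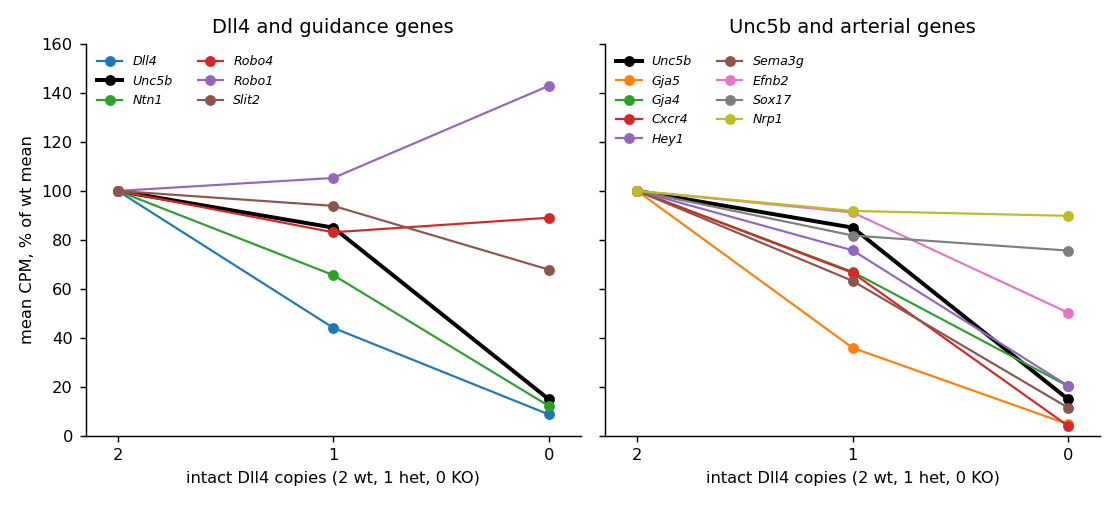
Mean CPM as a percent of the wt mean (vertical axis) against the number of intact Dll4 copies (horizontal axis, wt to KO from left to right), for Dll4 with 5 guidance genes (left) and for Unc5b with the 8 arterial genes (right). Unc5b goes from 85.0% in het to 14.9% in KO, while Robo4 stays at 83.1% and 89.1%.

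By Pearson's r of log2 CPM over the 6 libraries, the genes most like Unc5b among 9164 well expressed genes were Marcks, a substrate of protein kinase C at the membrane, with Snn and Cyyr1, at r of 0.9997, 0.9995 and 0.9994. Marcks went from 730 ± 15.2 CPM in wt to 690 ± 6.60 in het and 420 ± 8.83 in KO, and Snn from 197 ± 22.5 to 174 ± 6.75 and 30.3 ± 2.11 (SD, n = 2). With 6 libraries of which 2 stand apart such values are common, and 696 genes had r over 0.95 with Unc5b. For Ntn1 the closest were Hras, Entpd7 and Dnajb9 (464 genes over 0.95). For Robo4 they were Zdhhc9, Epn2 and Klhl24 (16 over 0.95), for Robo1 Dock4, Fam210a and Ppp4r3b (19), and for Slit2 Abl1, Zfp292 and Bend7 (8). These are descriptions of shared libraries, with no test.

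The other members of these families were mostly weak. Of 20 further ligand and receptor genes listed for the pathway, 19 had a matched row, Ntn3 was not analysed here, and 6 passed the low-count filter. Among netrin ligands, Ntn4, a basement membrane netrin, stood at 2.997 and 11.4 CPM in wt, 15.7 and 5.24 in het, and 19.1 and 13.2 in KO, and did not pass (KO against wt 1.28 ± 0.60, edgeR adjusted p = 0.144). The netrin receptor genes Unc5a and Neo1 stood at 11.9 ± 2.53 and 13.8 ± 1.65 CPM in wt and 9.41 ± 0.107 and 11.9 ± 3.17 in KO, and neither passed. Dcc, Dscam, Unc5d, Ntn5, Ntng2 and Slit1 had no count in any library. Ntng1, Unc5c, Robo2, Robo3, Flrt1, Rgma and Draxin had between 0 and 16 counts per library and were not tested. By counts, Unc5b was the most abundant of the netrin receptor genes in all 3 groups, KO included, and Robo4 that of the Robo genes.

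Of the membrane proteins that also bind these receptors, Flrt2, a ligand of UNC5 receptors, fell from 58.3 ± 1.06 CPM in wt to 37.1 ± 2.39 in KO (log2 fold change -0.65 ± 0.17 SE, edgeR adjusted p = 0.00503). It did not pass without wt replicate 4 (-0.59, adjusted p = 0.0857) or with library size only, DESeq2, equal totals or GC and length trends removed (-0.29 to -0.62). Flrt3 had wt, het and KO levels of 1.49 ± 0.316, 7.61 ± 4.35 and 4.10 ± 1.395 CPM, and Rgmb, a neogenin ligand, at 21.2 ± 2.18, 24.3 ± 1.84 and 19.9 ± 3.14. Neither passed in any comparison. Among these 6 tested relatives, 1 was called lower and none higher in KO against wt, near the 17.3% and 14.7% of all tested genes, and none was called in het against wt.

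Downstream, 27 of 29 listed cytoplasmic effectors were tested in KO against wt, and 10 fell, 4 rose and 13 did not pass. Over all tested genes 17.3% were called lower and 14.7% higher, so the number that rose was near the background. Their median log2 fold change was -0.20 against -0.02 over all genes. With library size only, which moved the median of all genes to 0.35, the count was 7 lower and 9 higher, so the balance of directions depends on the scaling. Leaving out each library in turn gave 8 to 10 lower and 2 to 4 higher. 

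The Ena/VASP genes, whose proteins extend actin filaments, were among those that fell. Enah, which encodes the actin regulator Mena, went from 19.3 ± 0.501 CPM in wt to 11.8 ± 2.57 in het and 1.89 ± 0.270 in KO, 10.02-fold lower in KO than in wt (edgeR adjusted p = 3.21e-06). Its relatives Vasp and Evl went from 182 ± 14.6 to 103 ± 12.2 CPM and from 76.2 ± 4.17 to 37.9 ± 0.357 (adjusted p = 2.97e-05 and 4.66e-05). All 3 were called lower in each of the 15 alternatives too. Srgap1, the Slit-Robo GTPase activating protein, went from 73.9 ± 14.1 to 36 ± 1.14 CPM (adjusted p = 4.86e-05), while its relative Srgap2 was at 76.8 ± 0.344 and 73.5 ± 1.11. The kinase gene Abl2 went from 53.5 ± 3.11 to 14.9 ± 4.70 CPM and Trio, an exchange factor for Rac that acts with DCC, from 58.0 ± 5.11 to 22.1 ± 9.17 (adjusted p = 1.05e-05 and 3.06e-04). Ablim1, an actin binding protein, and Git1, which with paxillin links ROBO4 to Arf6, fell to 116 ± 1.16 and 157 ± 34.1 CPM from 195 ± 14.7 and 249 ± 7.84. Those 2 did not pass with library size only.

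Fyn, a Src family kinase that binds DCC, rose from 265 ± 1.16 to 434 ± 9.63 CPM (edgeR adjusted p = 8.74e-06). Src itself went the other way, from 12.0 ± 5.44 to 3.84 ± 0.632 CPM (adjusted p = 0.0101). The call of Src did not hold with DESeq2, with equal totals, or without wt replicate 5 or KO replicate 2. Pxn, the gene of paxillin, rose from 155 ± 12.2 to 269.7 ± 11.1 CPM (adjusted p = 9.37e-06). The small GTPase genes Rac1, Cdc42 and Rhoa, at 711, 901 and 670 CPM in wt, were at 780, 881 and 578 in KO and did not pass. Arf6, a small GTPase gene of the same list, was called higher, from 159 ± 20.6 to 225 ± 18.6 CPM (edgeR adjusted p = 0.00360). Its log2 fold change was 0.51, and it was not called without wt replicate 4 (0.41) or KO replicate 2 (0.43). Of 5 heparan sulfate co-receptor genes 3 were tested, and 1, the syndecan gene Sdc3, rose from 83.0 ± 7.32 to 115 ± 4.53 CPM (adjusted p = 0.0117). Its call did not hold without wt replicate 5 (0.40, adjusted p = 0.121) or KO replicate 1 (0.43, adjusted p = 0.0744), with DESeq2 (adjusted p = 0.0560) or with equal totals (adjusted p = 0.0604). In het against wt none of the 36 tested pathway genes beside the 6 members was called by edgeR, and 2 had an unadjusted p under 0.05. Ablim1, at 118 ± 36.8 CPM or 60.3% of wt in het (edgeR adjusted p = 0.101), was called lower with no filter, with DESeq2 and without het replicate 2 (-0.77, -0.76 and -1.09).

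**Figure D4:**
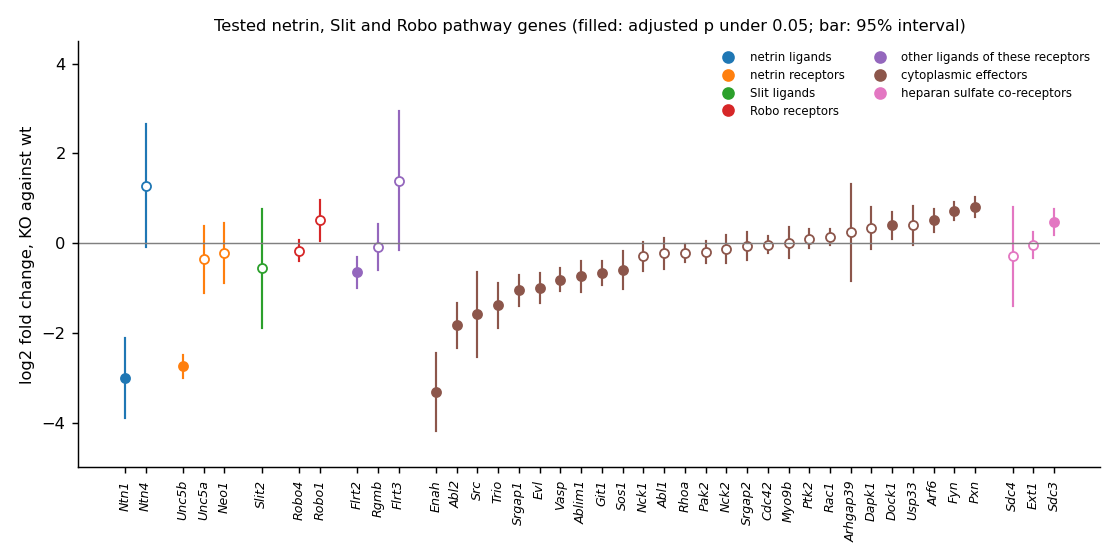
Log2 fold change of KO against wt (vertical axis) for the tested genes of the pathway lists, grouped by role, with 95% intervals as bars and filled points at adjusted p under 0.05. Ntn1, Unc5b and Enah lie lowest, near -3, and the filled points above 0 are cytoplasmic effectors and the syndecan gene Sdc3.

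The falls of Unc5b and Ntn1 did not hinge on a single library or setting. Over 15 alternatives the KO to wt log2 fold change of Unc5b lay between -2.83 and -2.38, and that of Ntn1 between -3.57 and -2.63, all called. With trends on GC content and transcript length removed, they were -2.48 and -2.78. Their transcripts, at 58.7% and 57.8% G and C, were richer than those of Robo1 and Slit2, at 49.5% and 45.5%. Robo4 lay between -0.24 and 0.20, never called against wt, and turned positive with library size only. Slit2 lay between -1.55 and -0.01 and Robo1 between 0.17 and 0.87.

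**Figure D5:**
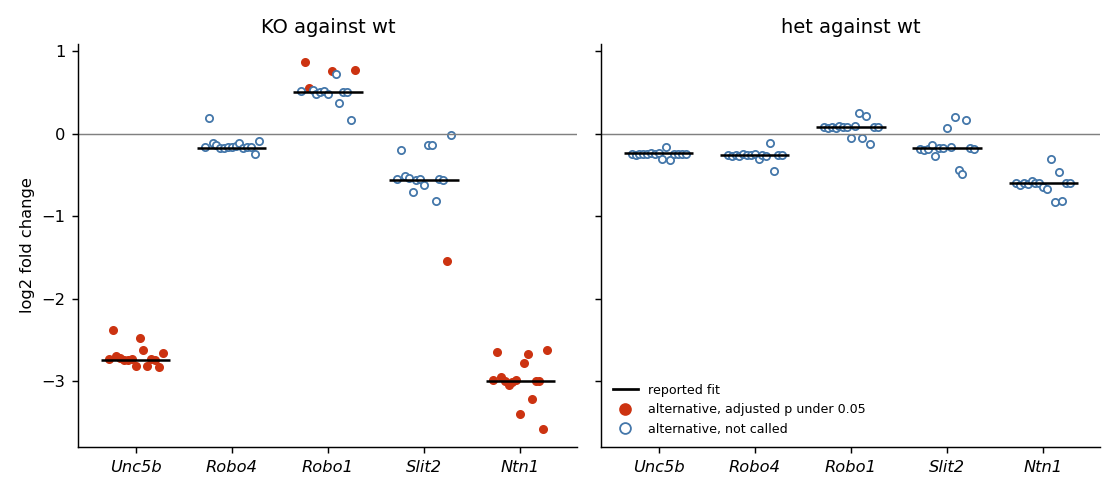
Log2 fold changes (vertical axis) of the 5 tested genes under the reported fit (line) and 15 alternatives (points, filled where the adjusted p was under 0.05), for KO against wt (left) and het against wt (right). Unc5b and Ntn1 stay below -2.3 and filled on the left, and no point is filled on the right.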

How the data were processed

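The authors deposited 1 table of expected counts, RSEM's per-gene read estimates, which can hold fractions. Per the submitters' processing notes it was made with CASAVA, cutadapt and RSEM on GRCm38, versions not given in the sources used here. Per the labels, cDNA was made with SMART-Seq v4 and libraries with Nextera XT, which do not mark strand. No exon of the 6 members overlaps an exon of another gene, and their values were whole in every library. Symbols and positions came from GENCODE M21 (GRCm38), which matched 97.9% of identifiers, and promoter windows from RefSeq (GRCm38.p6).

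Expected counts were rounded. In R 4.3.3, edgeR 4.0.16 with TMM factors, filterByExpr (minimum count 10) and a robust quasi-likelihood fit of all 6 libraries, with 3 residual degrees of freedom, gave two-sided tests with Benjamini-Hochberg adjustment over all 10952 genes tested, called at adjusted p under 0.05. Intervals are 95%. CPM use TMM-scaled totals and are mean ± SD. The procedure was tested on simulated counts with changes of known size in a small part of the genes. The simulation held no difference in makeup like that of the KO libraries, so it does not bear on that difference. Alternatives were DESeq2 1.42.0, limma-voom (limma 3.58.1), other scalings and filters, 2-group fits, thinning to equal totals, omission of Lars2, 7SL, 7SK and mitochondrial genes, omission of each library and, chosen after seeing the data, removal of GC and length trends.

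The members, lists and motifs were chosen with earlier results of these data known. Named were the members, every listed ligand and receptor, the 10 effectors or co-receptors of lowest adjusted p in KO against wt, and the 3 genes closest in pattern to each member. The unchanged effectors Srgap2, Rac1, Cdc42 and Rhoa, and Arf6, Src and Sdc3, fall outside this rule and were chosen after their values were seen. The same holds for Pdgfra, Col3a1, Plxnd1, Cdh5 and the other endothelial markers named, and for the arterial genes set beside Unc5b.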

Additional observations from a re-analysis of the deposited data

Results flagged for a closer look

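The log2 change of Unc5b at loss of the second Dll4 copy minus that at loss of the first was -2.27 (edgeR adjusted p = 1.21e-07). It stands out because the log2 change differed in size between 2 steps that each removed 1 copy. This trait was not particular to Unc5b, since 11.5% of all tested genes passed the same test. Cdh5 passed at -2.14 (edgeR adjusted p = 3.89e-09). Of the effectors, Srgap1, Evl, Trio, Vasp and Abl2 also passed, with values between -1.63 and -0.80. On this log2 scale the steps were not equal in Dll4 RNA itself, whose value was -1.15 (edgeR adjusted p = 0.00911). The Dll4 value did not pass in every alternative. In mean CPM the order differed for Dll4, at 189.5 in wt, 83.5 in het and 16.55 in KO, with the larger fall at the first step. Mean CPM of Unc5b was 271.4, 230.7 and 40.5, with the larger fall at the second step. The steps share the het libraries, and the second step also contains the difference between the KO libraries and the other 4 in makeup, which cannot be told apart from the genotype.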

How the results depend on the processing

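No paired analysis was possible because no 2 groups share 2 replicate numbers. The members called in KO against wt were 2 in the reported fit and 2 to 3 over 15 alternatives, and in het against wt 0 in all. In KO against het they were 2, 4 with library size only, and 2 to 3 without a replicate. For the difference between steps they were 1, 2 with library size only, where Robo4 passed as well, and 1 without any replicate.

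Over all genes, 3509 were called in KO against wt, 2265 with DESeq2 and 2043 to 3815 without a replicate, lowest without wt replicate 4. In het against wt 19 were called, 150 with no filter, 29 with DESeq2, 11 with limma-voom, 32 with GC and length trends removed and 2 to 76 without a replicate, the extremes being without wt replicate 4 and het replicate 3. In KO against het 3412 were called, 2180 with DESeq2 and 2435 to 3206 without a replicate. For the step difference 1258 were called, 2162 with library size only, 708 with DESeq2 and 758 to 1153 without a replicate, with 758 without het replicate 2 and 775 without wt replicate 4. Calls in KO against wt were 1610 higher and 1899 lower, and 3878 and 1034 with library size only. In KO against het they were 1524 and 1888, 3930 and 1016 with library size only, and 2047 and 1528 with GC and length trends removed. The precision of Ntn1 in KO is limited by few reads and that of Slit2 by the spread between the 2 KO libraries, which was wider than counting error. The causes of these shifts were not tested.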
